A study of Mus musculus with 8 samples.

Results

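PIWI proteins and the factors that make their small RNAs were followed in whole testis RNA of Dnmt3c mutant mice (Dnmt3C in the labels). The gene, whose product methylates transposon DNA in male germ cells, is interrupted here by an IAP element, a retrovirus-like transposon. The 10 genes were taken by symbol from the deposited gene tables: Piwil1, Piwil2, Piwil4, Mael, Mov10l1, Asz1, Pld6, Gtsf1, Henmt1 and Exd1. All 10 were measured in all 8 libraries, among 16282 genes measured at all 3 ages and 18584 measured at any age. Homozygous Dnmt3C IAP/IAP males (mutant) were set against heterozygous Dnmt3C IAP/WT males (control) in the fetal testis at 16.5 days post coitum (dpc) and in the young testis at 10 and 20 days post partum (dpp). At 20 dpp each genotype had 2 libraries, and at each of the earlier ages it had 1. The mice of both genotypes were hybrids of C3H/HeJ and C57BL/6J, and the controls carry the insertion on 1 chromosome, so no library is free of it. Whether animals were pooled, and whether the 20 dpp libraries came from separate animals, is not given in the sources used here.

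PIWI proteins are Argonaute relatives of the germ line that bind piRNAs, small RNAs whose sequences match transposons and other transcripts. In the fetal mouse testis PIWIL2 (MILI) and PIWIL4 (MIWI2) use transposon piRNAs, and PIWIL4 enters the nucleus and directs DNA methylation to young transposon copies, the step in which DNMT3C also acts. In pachytene spermatocytes a much larger piRNA population is made from dedicated loci and is bound by PIWIL1 (MIWI) and PIWIL2.

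In mm10, with gene bounds and strands from GENCODE M21, the PIWI genes lie apart, with Piwil1 at chr5:128702524-128755474 (plus), Piwil2 at chr14:70372477-70429383 (minus) and Piwil4 at chr9:14696230-14740733 (minus). The genes of precursor processing are Mov10l1 at chr15:88982909-89055152 (plus), Pld6 at chr11:59783897-59787645 (minus), Asz1 at chr6:18050964-18109061 (minus) and Mael at chr1:166201201-166238747 (minus). Those of maturation and partners are Henmt1 at chr3:108939873-108960774 (plus), Gtsf1 at chr15:103402405-103430470 (minus) and Exd1 at chr2:119516505-119547627 (minus). Gtsf1 and Mov10l1 share chromosome 15, and the other 8 genes have a chromosome each.

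Reads on genes ranged from 57166311 in the 16.5 dpc control to 155742823 in a 20 dpp control, and each of the 10 genes had between 90 and 174953 reads in every library. Normalised reads are the deposited scale, set by the authors within each age, and serve for the genotypes at 20 dpp. RPKM (reads on a gene scaled to its exon length and to all reads on genes) serves for levels across genes and ages. At 20 dpp the scales differ: dividing by total gene reads shifted the median of all genes by 0.59 on the log2 scale toward the mutants. The Sertoli and Leydig cell lists were measured in full at each age, with 10 of 10 and 8 of 8 genes, and 5 of 6 germ cell genes were measured. Gcna, Prm2 and Adgre1, markers of germ cells, spermatids and macrophages, are not listed at any age. The genotype labels were not checked against Dnmt3c, which was not analysed here.

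At 20 dpp, when late meiotic cells are present in normal testes, transcripts of 9 of the 10 genes were lower in mutants, and those of Piwil4, the fetal PIWI gene, were not. Of all 17194 genes, 33.1% were lower past the threshold (limma, Benjamini-Hochberg adjusted p under 0.05), 26.4% were higher and 59.5% either way. Higher and lower genes numbered 4539 and 5689, and 8428 and 3796 with total gene reads as the scale. The 10 genes had a median log2 change of -2.26, beside 0.05 over all genes. In whole testis, fewer cells of a type and less RNA per cell cannot be told apart.

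Piwil1, which encodes the PIWI protein of pachytene spermatocytes and round spermatids, had 1465 and 894.5 normalised reads in mutant testes, against 152482 and 151655 in control testes. The controls lay within 1.01-fold of each other and the mutants within 1.64-fold, far below them. Its log2 change was -7.05 ± 0.22 (SE), a level 133-fold lower in mutants (limma adjusted p = 1.4e-06).

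Piwil2, whose protein acts in fetal germ cells and again in spermatocytes, had 31474 and 25411 normalised reads in mutant testes, against 85953 and 92568 in control testes. It fell 3.15-fold in mutants, with a log2 change of -1.66 ± 0.14 (limma adjusted p = 6.0e-05). Piwil4 ran the other way, with 240.0 and 476.8 normalised reads in mutant testes, against 145.5 and 217.6 in control testes. The groups did not overlap, as was so for 41.2% of all genes with mutants higher and for 41.2% with mutants lower. The mutant libraries differed 1.99-fold, and the log2 change of 0.92 ± 0.45 did not pass (limma adjusted p = 0.11). Exons of Gm10706 on the other strand cover 3.37% of Piwil4 exon bases. Piwil4 passed as higher with total gene reads as the scale (log2 change 1.52, limma adjusted p = 0.016), with the upper quartile (1.38, limma adjusted p = 0.029) and without mutant replicate 1 (1.42, limma adjusted p = 0.033), and had 0.43 without mutant replicate 2.

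**Figure D1:**
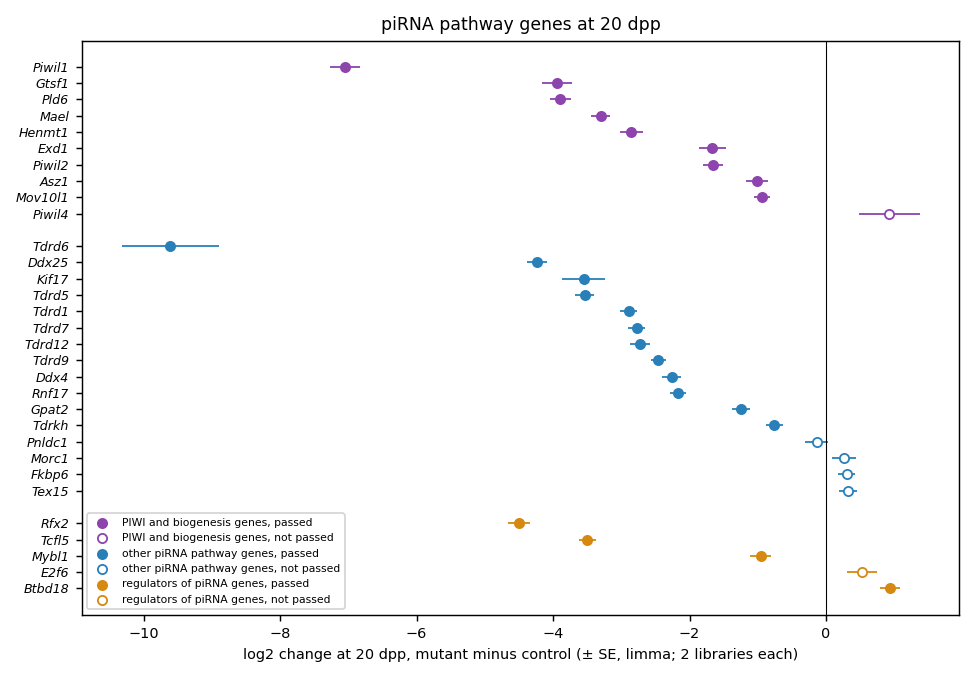
Log2 change at 20 dpp, mutant minus control, with its standard error from limma (2 libraries per genotype), for the 10 PIWI and biogenesis genes, 16 other piRNA pathway genes and 5 regulators. Filled points passed the threshold and open points did not; 9 of the 10 genes sit left of 0, from Piwil1 at -7.05 to Mov10l1 at -0.94, and Piwil4 sits at 0.92.

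Genes for the first steps of piRNA production fell by unequal amounts. Mov10l1, the RNA helicase that feeds precursor transcripts into processing, had 22702 and 21266 normalised reads in mutant testes, against 41209 and 42908 in control testes (log2 change -0.94 ± 0.11, limma adjusted p = 3.8e-04). Pld6, the nuclease on the outer mitochondrial membrane that cuts precursors, had 1158 and 966.4 in mutant testes, against 16263.5 and 15277 in control testes (log2 change -3.90 ± 0.15, limma adjusted p = 2.2e-06). The fall was 14.9-fold for Pld6 and 1.91-fold for Mov10l1, and replicates of either gene lay within 1.20-fold of each other. With total gene reads as the scale the log2 change was -3.30 for Pld6 and -0.34 for Mov10l1 (limma adjusted p = 4.1e-06 and 0.038).

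Asz1 (GASZ), a scaffold protein of the same membrane, had 5138 and 4023 normalised reads in mutant testes, against 9081 and 9237 in control testes, a 2.01-fold fall (log2 change -1.01 ± 0.16, limma adjusted p = 0.0012). Its call was lost with total gene reads as the scale (log2 change -0.41, limma adjusted p = 0.059). Mael (maelstrom), a protein of the germ cell granules called nuage, had 16307 and 13910 normalised reads in mutant testes, against 158540.1 and 138832 in control testes (log2 change -3.30 ± 0.14, limma adjusted p = 2.6e-06). For Mael the groups lay 9.85-fold apart while replicates lay within 1.17-fold.

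Genes for maturation and partners of PIWI proteins fell as well. Henmt1, which methylates piRNA 3′ ends, had 904.6 and 858.1 normalised reads in mutant testes, against 6639 and 6112 in control testes (log2 change -2.85 ± 0.16, limma adjusted p = 8.8e-06). Exons of the gene Gm9857 on the opposite strand cover 14.2% of Henmt1 exon bases. Since the strand setting is not given, reads of the pair on these shared bases cannot be told apart. Gtsf1, a zinc finger partner of PIWI proteins, had 1508 and 980.2 in mutant testes, against 20343.5 and 17128 in control testes (log2 change -3.94 ± 0.22, limma adjusted p = 7.8e-06). Exd1, a partner of TDRD12 in piRNA production, had 1756 and 1297 in mutant testes, against 5178 and 4448 in control testes (log2 change -1.67 ± 0.20, limma adjusted p = 3.5e-04). The fall was 7.22-fold for Henmt1, 15.3-fold for Gtsf1 and 3.18-fold for Exd1.

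Promoters were compared because 9 of the genes moved together and Piwil4 did not. RefSeq start sites (GRCm38.p6, the build of mm10) were found for 9 of the 10 genes, Piwil2 not among them, giving 11 promoters. The 250 bases before the start were searched for CAGTT and, on the other strand, AACTG, 1 form of the core recognised by MYB proteins. The MYB family factor A-MYB (Mybl1) is known in mouse to switch on pachytene piRNA genes. Other forms of the core were not searched, so a promoter without these letters may still hold a MYB site. The motif was in 27.3% of the 11 promoters and in 39.1% of 32851 mouse promoters of the same length. Piwil1 and Mael held 1 copy each, 73 and 105 bases before the start counted from the motif's first base. The Piwil1 window lies inside the gene bounds given above, which begin at 128702524, so a start at that bound was not searched. The main Piwil4 start and the promoters of Mov10l1, Asz1, Pld6, Gtsf1, Henmt1 and Exd1 had no such letters in this window, and a second Piwil4 start had 1 copy. The promoters held between 0 and 30 CpG pairs, beside a median of 6 over all promoters; the 0 was at the second Piwil4 start. The Piwil1 and Mael sequences are shown for the fallen genes that hold the motif and the main Piwil4 sequence for the gene that did not fall, each 5′ to 3′ with the motif in capitals.
Piwil1 (chr5:128735996-128736245, plus strand): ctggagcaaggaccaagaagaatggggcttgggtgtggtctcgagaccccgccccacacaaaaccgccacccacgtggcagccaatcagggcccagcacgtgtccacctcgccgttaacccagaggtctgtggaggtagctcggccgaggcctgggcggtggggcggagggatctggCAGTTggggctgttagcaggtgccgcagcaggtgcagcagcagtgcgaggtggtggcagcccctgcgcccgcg
Mael (chr1:166238745-166238994, minus strand): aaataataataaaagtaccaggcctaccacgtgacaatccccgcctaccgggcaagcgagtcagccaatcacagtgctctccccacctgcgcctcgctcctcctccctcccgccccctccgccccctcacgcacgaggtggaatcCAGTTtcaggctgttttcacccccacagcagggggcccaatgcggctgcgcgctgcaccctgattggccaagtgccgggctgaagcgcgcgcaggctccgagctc
Piwil4 (chr9:14740673-14740922, minus strand): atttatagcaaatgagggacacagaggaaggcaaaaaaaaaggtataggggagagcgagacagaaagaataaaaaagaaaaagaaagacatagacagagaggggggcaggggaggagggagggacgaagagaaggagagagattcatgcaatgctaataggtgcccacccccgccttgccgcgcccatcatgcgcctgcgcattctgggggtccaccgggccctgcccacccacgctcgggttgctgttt

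Other genes of the piRNA pathway, from a list of 18 with 16 measured, mostly fell at 20 dpp: 12 were lower, none was higher and 4 did not pass (median log2 change -2.36). The largest fall among them was in Tdrd6, a Tudor protein of the chromatoid body of spermatids, with 549.2 and 87.7 normalised reads in mutant testes, against 192575 and 154546 in control testes (log2 change -9.61 ± 0.71, limma adjusted p = 2.9e-05). Leaving out mutant replicate 1 gave Tdrd6 a log2 change of -10.93, and leaving out mutant replicate 2 gave -8.29. Tudor proteins bind methylated arginines of PIWI proteins, and Tdrd1, Tdrd5, Tdrd7, Tdrd9 and Tdrd12 fell, with log2 changes of -2.89, -3.54, -2.77, -2.46 and -2.72. The germ cell RNA helicases Ddx4 (VASA) and Ddx25 had log2 changes of -2.26 and -4.24. The Tudor protein gene Rnf17, the mitochondrial membrane gene Gpat2 and the kinesin Kif17 had log2 changes of -2.17, -1.25 and -3.55.

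Tdrkh, the Tudor protein that holds PIWI proteins at mitochondria, had a log2 change of -0.75 and lost its call with total gene reads (log2 change -0.16, limma adjusted p = 0.30) and with the upper quartile (-0.30, limma adjusted p = 0.057). The 4 that did not pass were Pnldc1, the trimmer of piRNA 3′ ends (-0.14), the co-chaperone Fkbp6 (0.30) and the nuclear silencing genes Tex15 (0.32) and Morc1 (0.27). Each of these 4 passed as higher with total gene reads as the scale (log2 changes between 0.46 and 0.92), and all of them but Pnldc1 did so with the upper quartile. Fkbp6 also passed without mutant replicate 1 (log2 change 0.39, limma adjusted p = 0.032).

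Another list held 5 genes named as regulators of piRNA genes, and whether they act on the genes followed here was not tested. Of the 5, Rfx2 and Tcfl5, transcription factors of spermatocytes and later cells, fell, with log2 changes of -4.49 and -3.50. Mybl1 itself had 16249 and 12423 normalised reads in mutant testes, against 26898 and 28390.4 in control testes (log2 change -0.96 ± 0.15, limma adjusted p = 0.0014), and lost its call with total gene reads (-0.36, limma adjusted p = 0.081). Btbd18, which acts on transcription of pachytene piRNA loci, rose 1.91-fold in mutants (limma adjusted p = 0.0013). E2f6, a repressor of germ line genes in somatic cells, stayed short of the threshold (log2 change 0.52, limma adjusted p = 0.078) and passed as higher with total gene reads (1.12), with the upper quartile (0.98), with the replicate block and without mutant replicate 1 or control replicate 2.

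Markers of cell types moved in the same libraries, and their part in the results was not tested. Of 10 listed pachytene and later spermatocyte genes all 9 measured fell (median log2 change -5.79), and their summed level over the 7 genes measured at every age was 407 and 311 CPM in mutant testes, against 7743 and 7126 CPM in control testes. Of 9 measured spermatid genes 9 fell (median -6.17). Of 10 early meiotic genes 7 fell and 2 rose (median -0.81), against 3 and 3 with total gene reads (median -0.21) and 3 and 3 with the upper quartile (median -0.36). Undifferentiated spermatogonial genes had 6 of 10 higher and 1 lower (median 0.96), and Sertoli cell genes 10 of 10 higher (median 1.00), with summed levels of 5001 and 5694 CPM in mutant testes, against 1709 and 1917 CPM in control testes. The 5 measured germ cell genes had 1 higher and 3 lower (median -0.71), and 2 higher and 2 lower with either of those scales. Their median was -0.12 with total gene reads, the scale of all CPM sums given here. Their summed level was higher, 2158 and 1784 CPM in mutant testes, against 1227 and 1440.0 CPM in control testes. In mutants most of it lay in Dazl (1200 and 876 CPM, against 443 and 564 in controls) and Taf7l (470 and 401 CPM, against 81.5 and 93.1). Differentiating spermatogonia had 5 of 8 higher and 1 lower, and 3 higher without control replicate 1. Myoid cell genes had 3 of 6 higher, but 6 of 6 with either scale or without mutant replicate 2, 1 without mutant replicate 1, and 0 without a trend or without control replicate 1. Leukocyte genes had 1 of 6 higher and 1 lower, but 5 higher with either scale and 3 higher without control replicate 2. Leydig cell genes had 2 of 8 higher (median 0.40), 3 higher with total gene reads or without mutant replicate 2, 5 higher without control replicate 2, and 2 higher and 2 lower without mutant replicate 1; the median was -0.21 without control replicate 1. Endothelial genes had 2 of 6 higher and 1 lower, 3 higher and 0 lower with either scale, and between 0 and 2 higher with a library left out.

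**Figure D2:**
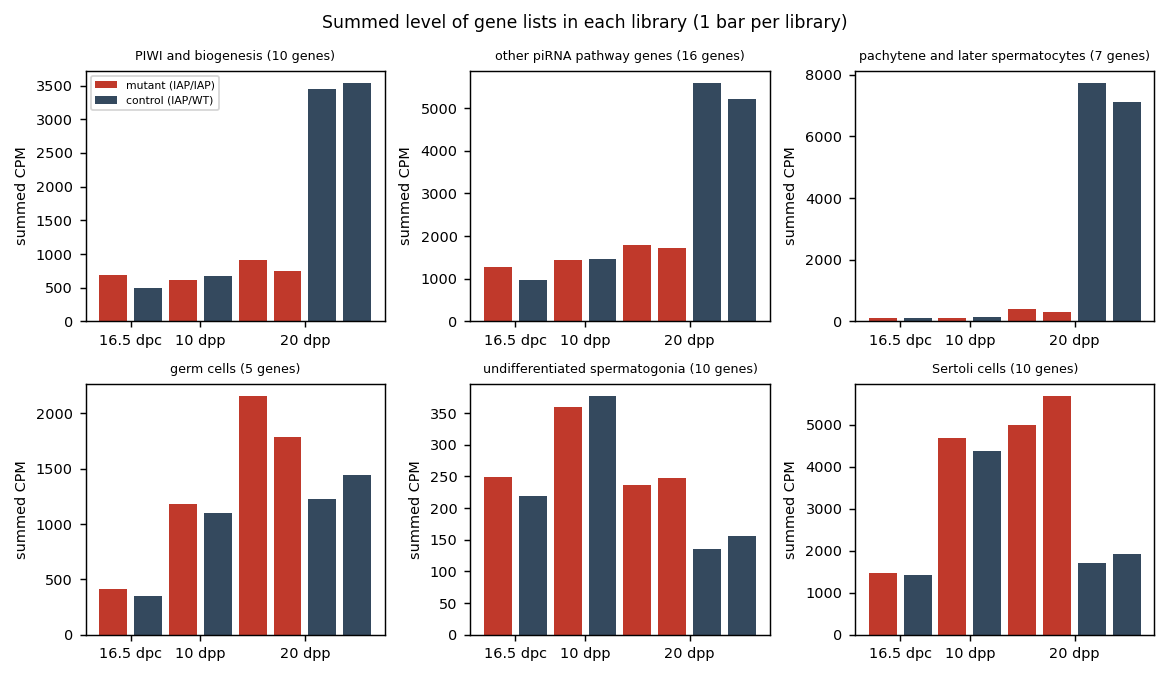
Summed CPM of the 10 genes and of 5 other gene lists, with 1 bar per library, ages left to right and mutant left of control within an age. At 20 dpp the 10 genes together held 911 and 748 CPM in mutant testes, against 3447 and 3544 CPM in control testes; the spermatocyte list shows the same split, while the Sertoli list is higher in mutants.

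Across ages the 10 genes followed different courses, and age cannot be told apart from the set of libraries prepared at that age. Piwil4 stood at 30.9 RPKM in the 16.5 dpc mutant and 21.1 RPKM in its control, at 2.91 and 3.07 RPKM in the 10 dpp mutant and control, and at 0.755 and 1.45 RPKM in the 20 dpp mutants, against 0.288 and 0.460 RPKM in the 20 dpp controls. It was thus highest in the fetal testis in either genotype. Piwil1 had 3.06 RPKM in the 16.5 dpc mutant and 1.79 in its control, 1.53 and 1.65 RPKM in the 10 dpp mutant and control, and 3.92 and 2.32 RPKM in the 20 dpp mutants, against 257 and 273 RPKM in the 20 dpp controls. In controls the mean was 160.3-fold higher at 20 than at 10 dpp, and in mutants 2.04-fold.

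Mael, Pld6 and Gtsf1 had control means at 20 dpp that were 7.56-fold, 6.38-fold and 6.56-fold of those at 10 dpp. In mutants the same comparison gave 1.20-fold, 0.639-fold and 0.786-fold. Asz1 varied little, between 24.7 and 39.4 RPKM over the 8 libraries. Set against the 10 dpp control, the mean RPKM of the 20 dpp mutants was between 0.359-fold (Piwil4) and 1.89-fold (Piwil1) for the 10 genes, and 1.16-fold for Mael.

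**Figure D3:**
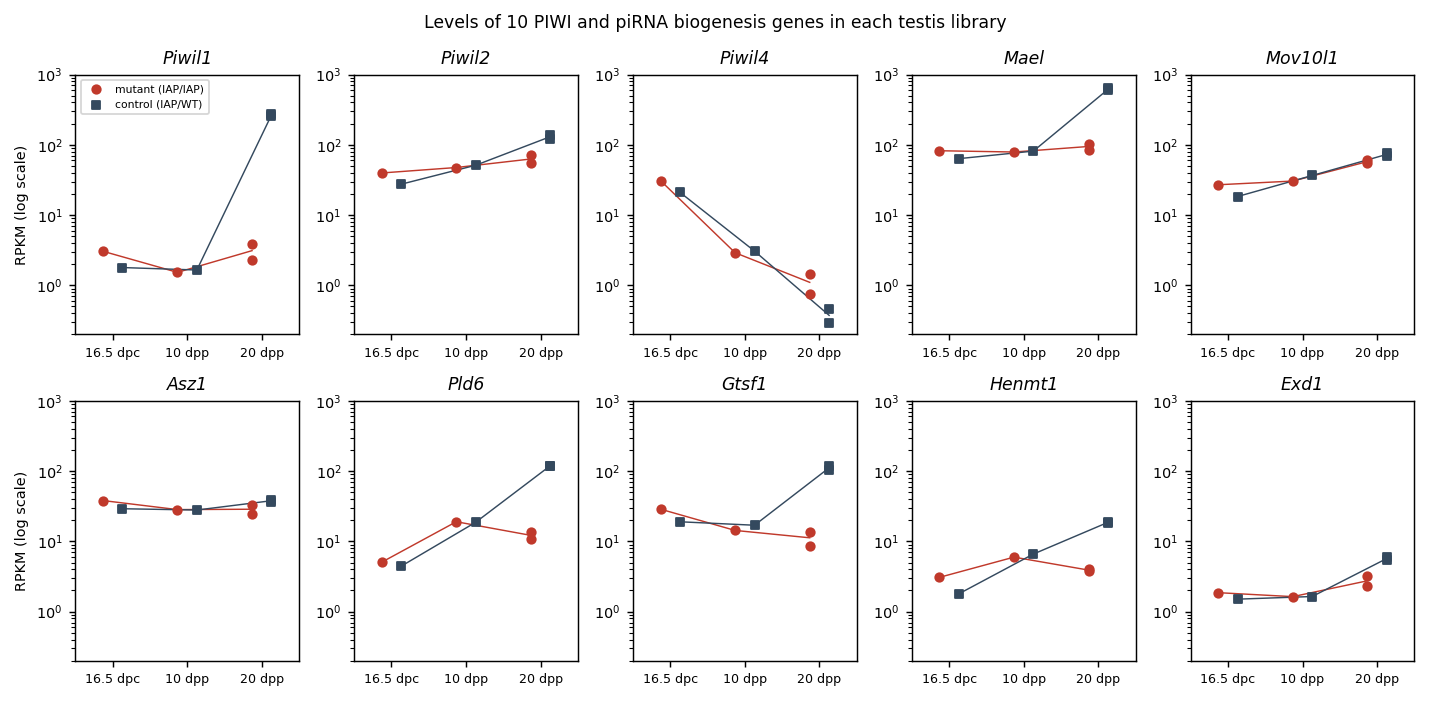
RPKM (log axis) of each of the 10 genes in every library, ages left to right, with mutants as red circles left of controls as dark squares and lines joining group means. Piwil1, Mael, Pld6 and Gtsf1 part between genotypes at 20 dpp, where Piwil1 is at 3.92 and 2.32 RPKM in mutants and at 257 and 273 RPKM in controls, and Piwil4 declines with age in either genotype.

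The order of the genes by RPKM changed with age. In the 16.5 dpc mutant and control Mael was first (82.3 and 63.5 RPKM), followed by Piwil2 and Asz1 in the mutant and Asz1 and Piwil2 in the control, then Piwil4, Gtsf1 and Mov10l1. Pld6, Henmt1, Piwil1 and Exd1 lay between 1.51 and 5.05 RPKM. In the 20 dpp mutants Mael was first with 103.8 and 85.6 RPKM, and the ranges of neighbours met for Piwil2 and Mov10l1, for Pld6 and Gtsf1, and among Henmt1, Piwil1 and Exd1 in turn. In the 20 dpp controls Mael was also first with 635.9 and 593 RPKM, then Piwil1 and Piwil2, and Piwil4 was last. No ranges of neighbours met there.

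At 10 dpp, when the first germ cells enter meiosis, the 10 genes lay close between the genotypes. With 1 library each there is no replicate check and no test. Ratios of mutant to control on the deposited scale ran from 0.840 for Mov10l1 (95% interval 0.816 to 0.865, exact binomial, counting error only) to 1.03 for Pld6 (0.946 to 1.11). Mov10l1 had 30.5 RPKM in the mutant and 36.6 RPKM in the control, and Gtsf1 had 14.3 and 17.0 RPKM, a ratio of 0.850. The interval lay below 1 for 4 genes, Mov10l1, Gtsf1, Piwil2 and Henmt1, beside 18% of 17376 genes, and above 1 for none of them, beside 20.2%. The ratio itself was above 1 for 3 of the 10, beside 50% of all genes. None reached 2-fold, beside 0.374% of all genes higher and 0.512% lower. Of the 16 other pathway genes 0 reached it, with ratios between 0.876 and 1.06. In the same pair of libraries the transposon families IAPEz-int, L1Md_A, MMERVK10C-int and L1Md_T had ratios of 3.44, 2.57, 4.37 and 1.77.

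At 16.5 dpc, when male germ cells are arrested and fetal piRNAs are made, each of the 10 genes was higher in the mutant library than in the control library, again 1 each. Piwil4 had 8053 reads in the mutant and 4224 in the control, a scaled ratio of 1.47 (95% interval 1.41 to 1.52). Piwil2 had a ratio of 1.45 (1.41 to 1.49), Piwil1 of 1.71 (1.52 to 1.92) and Henmt1 of 1.72 (1.48 to 2.00). Mov10l1 and Gtsf1 had 1.47 and 1.51, Asz1, Mael and Exd1 had 1.31, 1.30 and 1.24, and Pld6 had 1.14 with an interval that included 1 (0.967 to 1.35). The interval lay above 1 for 9 of 10 genes, beside 21.8% of 17709 genes, and below 1 for none, beside 20.1%. The ratio was above 1 for 50.8% of all genes. None of the 10 reached 2-fold, beside 0.497% of all genes higher and 0.237% lower.

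The spread between libraries of 1 genotype at 16.5 dpc is not known. At 20 dpp, another age, replicates differed for the same genes by a median of 1.26-fold in mutants and 1.08-fold in controls. That difference was larger than 1.46-fold, the median ratio at 16.5 dpc, for Piwil1, Piwil4 and Gtsf1 in mutants and for Piwil4 in controls, and smaller for the other genes. Other germ cell transcripts were higher in the same 16.5 dpc mutant library, and their part was not tested. Of 16 other pathway genes 13 had an interval above 1 (median ratio 1.29, from 0.858 for Tdrd6 to 1.65 for Gpat2), and all 5 measured germ cell markers did (median 1.16, range 1.13 to 1.39), with a summed level of 412 CPM in the mutant and 352 CPM in the control. Dazl, an RNA-binding protein of germ cells, had a ratio of 1.15. The Sertoli cell median was 1.06 and the leukocyte median 0.83. L1Md_A, IAPEz-int, MMERVK10C-int and L1Md_T had ratios of 0.957, 1.05, 1.20 and 1.00 in this pair.

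**Figure D4:**
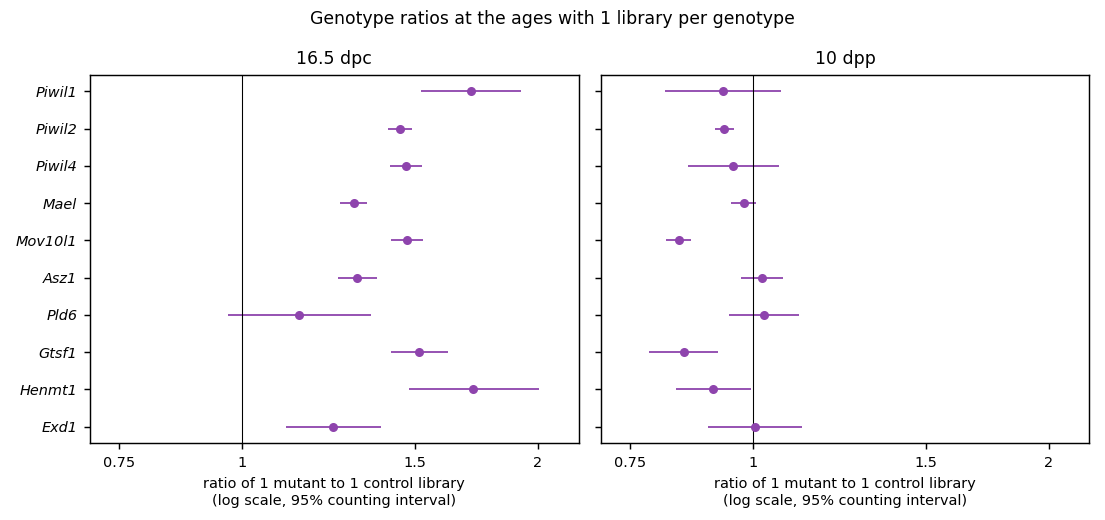
Ratio of the mutant library to the control library (log axis) for the 10 genes at 16.5 dpc and 10 dpp, with exact 95% intervals for counting error. At 16.5 dpc the ratios run from 1.14 to 1.72, and at 10 dpp from 0.840 to 1.03.

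Whether the genotype difference itself differed between ages was tested with all 8 libraries in 1 limma fit, where the spread comes from the 20 dpp replicates and single libraries are assumed to vary alike. From 10 to 20 dpp the difference became more negative for 9 of the 10 genes, beside 22.6% of 16282 genes, and more positive for none, beside 9.29%. Piwil4 did not pass (0.99 ± 0.64, limma adjusted p = 0.26). The change of the genotype difference was -6.95 ± 0.40 for Piwil1 (limma adjusted p = 1.1e-04) and -0.69 ± 0.20 for Mov10l1 (limma adjusted p = 0.035). The calls of Mov10l1, Asz1 and Exd1 were lost without a trend (limma adjusted p = 0.12, 0.092 and 0.052) and with total gene reads (0.71, 0.22 and 0.052). Mov10l1 and Asz1 lost theirs without control replicate 1 (limma adjusted p = 0.10 and 0.052), and Mov10l1 without control replicate 2 (0.11). Piwil4 passed without mutant replicate 1 (1.48, limma adjusted p = 0.037).

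Between 16.5 dpc and 20 dpp the same 9 genes passed, beside 23.2% of all genes more negative and 10% more positive, with Piwil1 at -7.82 ± 0.40 and Asz1 at -1.40 ± 0.27 (limma adjusted p = 9.9e-05 and 0.0062). This contrast uses the same 20 dpp libraries as the one before. Asz1 was lost without a trend (limma adjusted p = 0.051). Between 16.5 dpc and 10 dpp 0 of 16282 genes passed in limma. Each group in that contrast was 1 library, so it rests wholly on the assumed spread. At an unadjusted limma p under 0.05 were 57 genes (0.35%), a smaller share than the threshold itself. The assumed spread may be too wide here, so the lack of calls does not show equal differences. Among the 57 were Mov10l1 (-0.81 ± 0.23) and Henmt1 (-0.91 ± 0.38), neither of which passed after adjustment.

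Profiles over the 8 libraries placed Piwil1 and Piwil4 far apart. The likeness measure was the root mean square difference of log2 CPM after centring each gene, over 12197 genes besides the one compared. Closest to Piwil1 were Ccdc65 (0.305), Smim24 (0.319), Fam229b (0.358), Dnajb13 (0.374) and Ggn (0.377). They were picked by likeness over these same libraries, so their high level in the 20 dpp controls follows from the choice. Ccdc65 had 4.06 and 1.40 CPM in the 20 dpp mutants, against 238 and 183 CPM in control testes. Closest to Piwil4 were Tril (0.303), Pdgfrb (0.306), B3gnt5 (0.312), Kank4 (0.312) and Pou5f1 (0.331). Which cell types lie behind this likeness was not tested. Tril, the closest, had 266 and 251 CPM in the 16.5 dpc mutant and control, and Pdgfrb had 189 and 191 CPM. In the 20 dpp mutants Tril had 6.58 and 9.49 CPM, against 2.65 and 3.29 CPM in control testes. Pou5f1 had 71.6 CPM in the 16.5 dpc mutant and 60.5 CPM in its control, and 2.36 and 2.11 CPM in the 20 dpp mutants, against 0.528 and 1.09 CPM in control testes. Piwil1 and Piwil4 themselves differed by 4.88. Among the other 9 genes Pld6 (1.72) and Mael (1.75) were closest to Piwil1, at ranks 576 and 602 of the 12197 genes.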

How the data were processed

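Whole testis RNA was sequenced, and the authors deposited log2 values per gene and per repeat family for 8 libraries, without header lines. The submitters' processing notes name mm10, Bowtie 1.0.0, HTSeq 0.6.1 and TopHat2 2.0.6, with no roles. The sources used here give no strand setting, gene annotation or library kit.

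Every deposited log2 value equalled log2 of a whole count over a library factor, plus 1. A tolerance of 0.01 reads took in 100% of values, and each age's factors matched its own median of ratios. The lowest gene count in any table is 6, so genes lower than that in a library of an age are not listed. CPM used all reads on genes, and RPKM the exon union in GENCODE M21. Depths ran from 57166311 to 155742823 reads, and intervals cover counting error only. Between 20 dpp replicates gene reads differed by far more than counting error, with a chi-square per degree of freedom of 133 in mutants and 80.6 in controls.

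At 20 dpp limma 3.58.1 (R 4.3.3, eBayes with a trend, genes and families in 1 fit, 2 residual and 5.21 prior degrees of freedom) compared 2 mutant with 2 control libraries, with Benjamini-Hochberg adjustment over all genes. Log2 changes are on the log2(value + 1) scale. The p-values reflect the spread among these libraries, which may be technical. No count model was used. At the ages with 1 library per genotype, ratios have exact binomial 95% intervals (SciPy 1.17.1), and a gene counts as 2-fold with at least 50 reads. The fits were tested on simulated data.

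Same-numbered 20 dpp libraries share only a number. The members, lists and tests were chosen with earlier results of these data known. Named genes were the 10 genes, the measured pathway and regulator genes, and the most abundant markers. The 5 closest profiles to Piwil1 and Piwil4 with at least 5 CPM were also named, leaving out predicted models. Of the markers, values are given for Dazl and Taf7l and otherwise by list, apart from Pou5f1, named as a close profile. IAPEz-int, L1Md_A, L1Md_T and MMERVK10C-int were chosen after their values were seen. Alternatives covered scaling, pseudocount, filter, trend, fit, block and libraries left out.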

Additional observations from a re-analysis of the deposited data

Results flagged for a closer look

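The genotype difference changed with age for 9 of the 10 genes (6 of them from 10 dpp under 2 of the alternatives), by a limma test of the difference itself in which the spread comes from the 20 dpp replicates alone. From 10 dpp to 20 dpp it changed by -6.95 for Piwil1, -3.93 for Pld6, -3.71 for Gtsf1, -3.27 for Mael, -2.72 for Henmt1, -1.67 for Exd1, -1.56 for Piwil2, -1.04 for Asz1 and -0.69 for Mov10l1 on the log2 scale. From 16.5 dpc to 20 dpp it changed by -7.82 for Piwil1, -4.54 for Gtsf1, -4.09 for Pld6, -3.68 for Mael, -3.63 for Henmt1, -2.19 for Piwil2, -1.98 for Exd1, -1.49 for Mov10l1 and -1.40 for Asz1. Each of the 2 contrasts uses the same 20 dpp libraries, so they do not support each other. The 10 dpp ratios lay between 0.840 and 1.03, so the contrast from 10 dpp largely restates the 20 dpp genotype change. For Piwil1 the values were -6.95 and -7.05. Groups of 1 or 2 libraries are too small for a check of single outlying samples.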

How the results depend on the processing

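At 20 dpp the 9 lower genes kept their direction under every alternative, and Asz1 with total gene reads lost its call. The replicate number as a block left 9 of the 10 lower, with Piwil1 at -7.05, and moved no call of the 10; same-numbered libraries correlated at 0.04 across 17194 genes. With libraries left out in turn, 9 were lower each time and between 0 and 1 was higher. Piwil4 was the 1 higher gene with total gene reads and with the upper quartile. Genes higher at 20 dpp numbered 4539, and 8428 with total gene reads, 7538 with the upper quartile and 2945 to 4046 with a library left out; genes lower numbered 5689, and 3796 with total gene reads. For the change from 10 to 20 dpp, 1513 genes were more positive and 3676 more negative (5189 in all), against 431 more positive and 2938 in all without a trend, and 5064 and 2422 with total gene reads. Leaving out a library gave 658 to 2223 more positive genes, and between 0 and 1 of the 10 genes; of the 9 genes more negative in this contrast, 6 passed without a trend, 6 with total gene reads, 7 without control replicate 1 and 8 without control replicate 2. From 16.5 dpc, 8 passed without a trend. For the change from 16.5 dpc to 20 dpp, 1628 were more positive of 5413, against 489 of 3135 without a trend, 5023 more positive with total gene reads, and 751 to 2297 with a library left out; Piwil4 (0.37) ran from -0.12, without mutant replicate 2, to 0.86, without mutant replicate 1. From 16.5 dpc to 10 dpp, 0 to 1 genes passed with a library left out. The rule for single libraries named 88 higher and 42 lower genes at 16.5 dpc, 19 and 9 at a minimum of 200 reads, and 403 and 180 at 1.5-fold, which took in 3 of the 10 genes; at 10 dpp it named 65 and 89, 27 and 23, and 179 and 263. Where a library is left out at 20 dpp, its group keeps 1 library that is assumed to vary like the other group. Causes were not tested. Depth limits the 10 genes little, Piwil4 at 20 dpp most, with 90 to 484 reads.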
